A study of Mus musculus with 4 samples.

Results

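The *Apoa1*, *Apoa4*, *Apob*, *Apoc3*, *Mttp*, *Fabp1*, *Fabp2*, *Fabp6*, *Dgat1* and *Scarb1* genes of lipid absorption and lipoprotein assembly were followed in CD8αβ+ IELs and CD8αβ+ SPLs. Their probes were found by gene name among the probes that are not controls, which gave 10 genes on 17 probes (26 spots) of the 41174 probes and 27376 gene names on the array. CD8αβ+ IELs are T cells that live between the epithelial cells of the small intestine, and CD8αβ+ SPLs are their counterparts in the spleen. Each sample was a pool of male wild-type C57BL/6 mice aged 8 to 12 weeks with no further treatment, from which CD45+CD3+CD8α+CD8β+TCRβ+ cells were sorted. There were 2 samples per group, and each was hybridized to its own 1-color Agilent array. IEL replicate 1 and SPL replicate 2 shared slide 1, and IEL replicate 2 and SPL replicate 1 shared slide 2.

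The enterocyte, the absorptive cell that lines the villus, takes up fatty acids, monoacylglycerol, cholesterol and bile acids from digested food. Small fatty acid binding proteins carry these lipids through the cytosol, acyltransferases rebuild triglyceride at the endoplasmic reticulum, and a transfer protein loads the triglyceride onto apolipoprotein B to form a chylomicron. Other apolipoproteins join the particle and act on it in lymph and blood. The liver uses many of the same genes, and *Dgat1* and *Scarb1* are active in many tissues.

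All 10 measured genes of a CD8 T cell list were well above background on the 4 arrays and *Cd8a*, which encodes the CD8α chain, read between 42261 and 52019 units. Well above background is the scanner software's mark for a spot that stands clear of its local surroundings. The arrays did not group by cell type. Pearson's r across the 27911 tested probes (no independent replicates) was 0.946 for the IEL arrays, 0.986 for the SPL arrays, 0.992 for the pair on slide 2 and 0.911 for the pair on slide 1. The array most like IEL replicate 2 was thus SPL replicate 1, and values without IEL replicate 2 and within each slide are given beside the results. Between 63.6% and 69.6% of probes were well above background on an array, and with so few arrays the precision is limited. Intensities below are background-subtracted scanner units as deposited, and differences are of log2 intensity relative to the 75th percentile of the array (312 and 435 units in IEL replicates 1 and 2, and 479 and 605 units in SPL replicates 1 and 2). Intensities of different probes were not set against each other, since probes bind with different strength.

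At the level of the group, 6 of the 7 genes that could be tested were higher on both IEL arrays than on either SPL array. These were *Fabp1*, *Fabp2*, *Dgat1*, *Apoa1*, *Apoa4* and *Apob*, each on its brightest tested probe, and *Scarb1* overlapped between the groups. The same separation held for 24.4% of all tested probes, and both IEL arrays lay below both SPL arrays for 24.6%. The median difference over the 7 genes was 2.13 (log2, IELs minus SPLs), beside a median of -0.00072 over all probes. On slide 1 the median of the 7 genes was 2.79 and on slide 2 it was 1.45. The median of 2.13 is the value of *Apoa1*, and the slide 1 median is that of *Apob*. Both rest on SPL replicate 2, where these probes were not well above background. The direction depended on how the background was corrected. Normexp on the uncorrected intensities put the members' median at -0.23 beside -0.38 for all probes. In that fit *Fabp1*, *Apoa1*, *Apoa4* and *Apob* were below 0, and *Fabp2* and *Dgat1* were above. Refitted without 25 spots far under their local background, a step chosen after seeing the data, normexp put all 6 of these genes above 0. The members' median was then 0.75, beside 0.15 for all probes. No member passed the test (limma, Benjamini-Hochberg over all 27911 probes), and the share of all probes called was 0%. The smallest adjusted p over all probes was 0.634, while 1293 probes were higher and 307 lower at an unadjusted p under 0.05, among them 5 members that were higher. The unpaired test named in the study's methods also called 0 probes after adjustment, with 470 higher and 349 lower before it. An exact permutation test of 2 samples against 2 cannot give a two-sided p under 0.333. The 7 genes passed a filter that asks for a signal on both arrays of at least 1 group, so these counts do not describe all 10 genes. *Apoa1* and the brightest *Apob* probe passed it through the IEL arrays alone, since SPL replicate 2 was not well above background. Their separation is thus not independent of the filter.

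**Figure D1:**
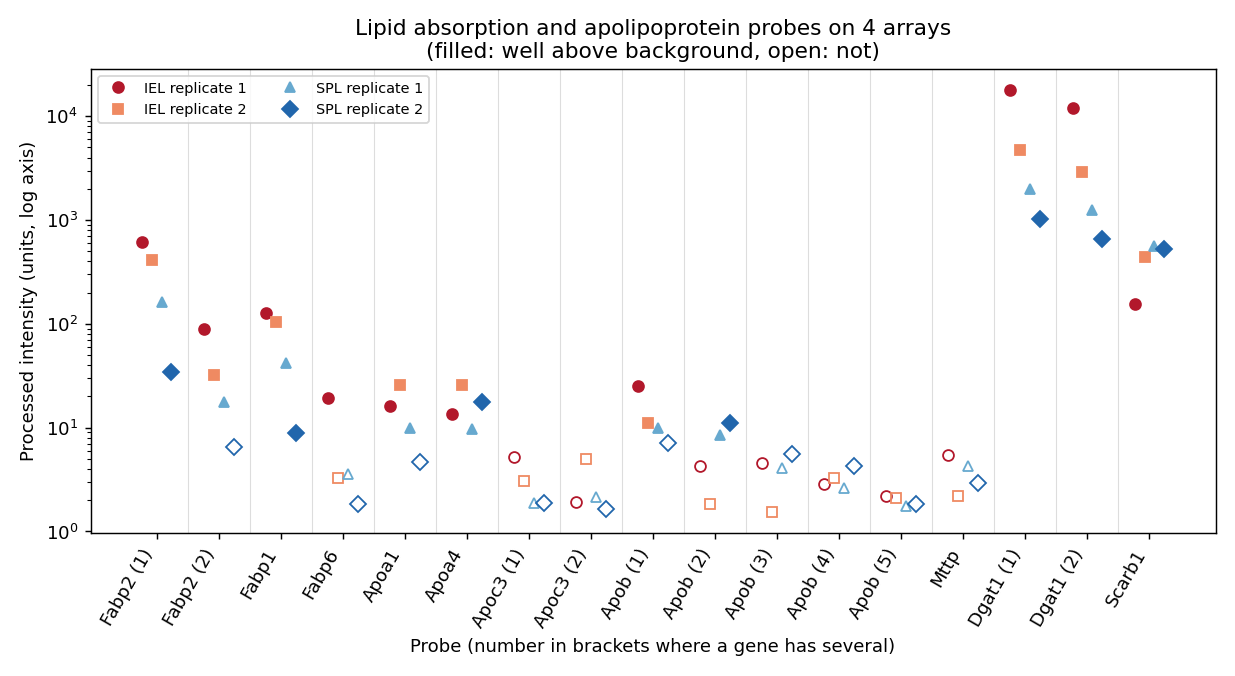
Processed intensity (units, log axis) of the 17 probes of the 10 genes on the 4 arrays. Filled symbols were well above background and open symbols were not. The *Fabp1*, *Fabp2* and *Dgat1* probes step down from IEL replicate 1 to SPL replicate 2, and the *Apoc3* and *Mttp* symbols are all open.

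Of the fatty acid binding proteins, *Fabp2*, the intestinal form, read 611 and 413 units in IEL replicates 1 and 2, and 164 and 34.4 units in SPL replicates 1 and 2, on a probe at chr3:122602276-122602335 (mm9). All 4 arrays were well above background, also those of the spleen, and the groups did not overlap. The difference was 3.29 ± 0.97 (SE, n = 2 per group, 95% interval 0.68 to 5.90, adjusted p = 0.634), or 9.78-fold. Slide 1 gave 5.11 and slide 2 gave 1.47. Another *Fabp2* probe, at chr3:122599692-122599751, read 88.7 and 31.9 units in IELs, and 17.7 and 6.51 units in SPLs, of which the last was not well above background. Its difference was 2.86 ± 0.92, so the probes of this gene had the same order of arrays.

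*Fabp1*, the liver fatty acid binding protein that enterocytes also make, read 128 and 103 units in IEL replicates 1 and 2, and 41.6 and 8.87 units in SPL replicates 1 and 2 (chr6:71154906-71154965). The IEL arrays lay close together, and the SPL arrays were apart by 2.56 log2, much as for the first *Fabp2* probe (2.59). The difference between groups was 3.13 ± 0.94 (95% interval 0.61 to 5.64, adjusted p = 0.634), or 8.74-fold, and came to 4.80 on slide 1 and 1.45 on slide 2. *Fabp6*, the ileal bile acid binding protein, read 19.4 units in IEL replicate 1, where it was well above background. It was not so in IEL replicate 2 (3.31 units) or in SPL replicates 1 and 2 (3.62 and 1.85 units), so it was not tested. Of the 3 binding proteins, *Fabp6* was thus seen on 1 array.

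Promoter sequence was taken from the RefSeq table for GRCm38.p6, which held 7 of the 10 genes and did not list *Apoc3*, *Dgat1* or *Scarb1*. Windows of 300 bases, from 250 before to 50 after the start, were searched on both strands for AGATAA and TGATAA (bound by GATA factors), CAAAGTCCA and CAAAGNNCA (HNF4, the first being a case of the second), and TTTATNG (CDX). These factors are known for driving genes of the absorptive epithelium. The 250 bases before the start are shown for the binding proteins whose values ran most alike, at chr6:71199629-71199878 for *Fabp1* and chr3:122894822-122895071 for *Fabp2*, both on the plus strand, with motif letters in capitals.
Fabp1: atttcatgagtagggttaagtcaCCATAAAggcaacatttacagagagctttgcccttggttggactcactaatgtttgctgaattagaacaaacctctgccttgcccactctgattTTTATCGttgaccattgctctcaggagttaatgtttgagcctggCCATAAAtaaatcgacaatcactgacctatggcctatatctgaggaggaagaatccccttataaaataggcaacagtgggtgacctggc
Fabp2: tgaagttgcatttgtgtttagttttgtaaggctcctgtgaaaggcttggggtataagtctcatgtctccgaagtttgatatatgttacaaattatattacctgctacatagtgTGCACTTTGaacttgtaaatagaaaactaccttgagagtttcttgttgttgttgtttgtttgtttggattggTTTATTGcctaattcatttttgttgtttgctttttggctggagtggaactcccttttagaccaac
*Fabp1* held TTTATNG at 3 places, starting at positions -227, -133 and -89. *Fabp2* held TTTATNG at -65 and CAAAGNNCA at -137. Of the 7 promoters, 3 held TTTATNG, 3 held CAAAGNNCA and 1 held TGATAA, while AGATAA and CAAAGTCCA were in 0. Among all 32851 promoters of the table, the shares were 10.9%, 6.36%, 9.05%, 11.2% and 0.475% in the same order. These are matches of letters in a window, and no binding was measured.

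The apolipoproteins were dim on every array. *Apoa1*, the main protein of high density lipoprotein, was read by 10 repeat spots of 1 probe (chr9:46037921-46037980) at 16.2 and 26.0 units in IEL replicates 1 and 2, and 9.98 and 4.67 units in SPL replicates 1 and 2. Repeat spots ran from 12.5 to 20.1 units in IEL replicate 1 and from 23.3 to 28.8 in IEL replicate 2. They spanned 7.36 to 11.7 units in SPL replicate 1 and 1.88 to 7.83 units in SPL replicate 2. The spots of the IEL arrays therefore did not overlap those of the SPL arrays, and no spot of SPL replicate 2 was well above background (0 of 10). The difference was 2.13 ± 0.54 (95% interval 0.69 to 3.58, adjusted p = 0.634). It was 1.52 on slide 2, where both arrays measured the gene. The mean and the slide 1 value (2.75) are fitted values that rest on SPL replicate 2, where it was not well above background.

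*Apoa4*, which coats chylomicrons and is known to rise in enterocytes after a fatty meal, read 13.7 and 25.8 units in IEL replicates 1 and 2, and 9.76 and 17.7 units in SPL replicates 1 and 2 (chr9:46049661-46050404). On the raw scale the groups overlapped, and after scaling both IEL arrays lay above both SPL arrays. The difference was 1.06 ± 0.32 (95% interval 0.20 to 1.92, adjusted p = 0.634), from values of 0.59 on slide 1 and 1.54 on slide 2. For *Apoa1* and *Apoa4* the IEL replicate 1 level was below that of IEL replicate 2, by 0.21 and 0.43 log2, the reverse of the order for *Fabp1*, *Fabp2* and *Dgat1*. *Apoc3*, an inhibitor of triglyceride clearance, had probes at chr9:46041363-46041422 and chr9:46041353-46041412, which share most of their target. They read between 1.63 and 5.22 units, and no array had them well above background.

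These genes neighbour each other. With *Apoa5*, *Apoa1*, *Apoc3* and *Apoa4* span chr9:46228630-46271921 in GRCm38.p6, or 43.3 kb. *Apoa5*, a regulator of triglyceride clearance made by the liver, read 6.94 and 32.1 units in IEL replicates 1 and 2, and 14.6 and 40.8 units in SPL replicates 1 and 2. It was not well above background in IEL replicate 1, and its groups overlapped. The difference of *Apoa5* was 1.28 on slide 2, where both arrays were well above background. Its mean difference (-0.16) and slide 1 value (-1.60) are fitted values that rest on IEL replicate 1. The 250 bases before the start of *Apoa1* (chr9:46228380-46228629) and *Apoa4* (chr9:46240594-46240843), on the plus strand, are given for comparison.
Apoa1: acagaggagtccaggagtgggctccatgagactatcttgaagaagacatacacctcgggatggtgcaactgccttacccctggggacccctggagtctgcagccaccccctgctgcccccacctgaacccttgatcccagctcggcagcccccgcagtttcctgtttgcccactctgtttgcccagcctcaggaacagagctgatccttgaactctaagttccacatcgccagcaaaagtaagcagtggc
Apoa4: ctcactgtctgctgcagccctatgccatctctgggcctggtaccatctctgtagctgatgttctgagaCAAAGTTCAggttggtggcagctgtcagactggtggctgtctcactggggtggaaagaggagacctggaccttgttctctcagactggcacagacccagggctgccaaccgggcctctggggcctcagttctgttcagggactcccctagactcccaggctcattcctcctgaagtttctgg
*Apoa4* held CAAAGNNCA at -182, in capitals, and the TGATAA of *Apoa1* lay at position 16 after the start, outside the printed bases. The GC share was 58% and 57.6%, against 42.8% for *Fabp1* and 35.6% for *Fabp2*.

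*Apob*, the structural protein of the chylomicron, had 5 probes on chr12, of which 2 were tested. The brightest, at chr12:8014710-8014769, read 25.4 and 11.0 units in IEL replicates 1 and 2, and 9.81 and 7.11 units in SPL replicates 1 and 2, of which the last was not well above background. Its difference was 1.55 ± 0.67 (95% interval -0.25 to 3.35, adjusted p = 0.634), and slide 1 (2.79) exceeded slide 2 (0.31). A second probe, at chr12:8023194-8023253, was well above background in the SPL arrays alone (8.58 and 10.98 units, against 4.27 and 1.82 units in IELs). It was tested only because of the SPL arrays, and the lowest signal called well above background on the IEL arrays was too near the SPL readings to give a fold, so no direction was read from it (fitted value -1.25 ± 0.62). The other 3 probes, of which the probe at chr12:8023134-8023193 abuts the second, read between 1.53 and 5.52 units and stayed near background throughout. *Mttp*, which loads triglyceride onto apolipoprotein B, read 5.45 and 2.20 units in IELs, and 4.26 and 2.91 units in SPLs, with no array well above background. Neither its presence nor a difference was detectable at this signal.

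*Dgat1*, the acyltransferase that adds the last fatty acid to triglyceride, was bright on every array. Its first probe, at chr15:76333128-76333274, read 18017 and 4771 units in IEL replicates 1 and 2, and 2003 and 1015 units in SPL replicates 1 and 2. The groups did not overlap, and IEL replicate 1 was 2.40 log2 above IEL replicate 2. The difference was 3.25 ± 0.95 (95% interval 0.69 to 5.81, adjusted p = 0.634), or 9.51-fold, with 5.10 on slide 1 and 1.39 on slide 2. The second probe, at chr15:76333491-76333707, read 12085 and 2876 units in IELs, and 1247 and 660 units in SPLs, with a difference of 3.25 ± 0.99. *Scarb1*, the receptor for high density lipoprotein, stood apart from the other members. It read 156 and 442 units in IEL replicates 1 and 2, and 562 and 530 units in SPL replicates 1 and 2 (chr5:125757658-125757717), and only IEL replicate 1 lay well below the rest. Its difference was -0.51 ± 0.44 (95% interval -1.68 to 0.67, adjusted p = 0.670).

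**Figure D2:**
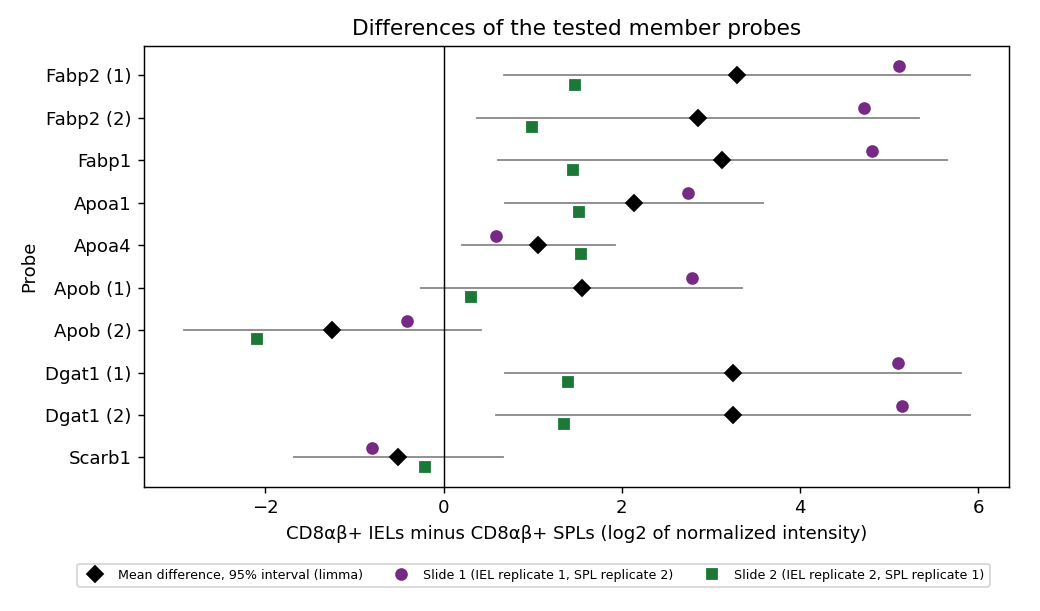
Difference between CD8αβ+ IELs and CD8αβ+ SPLs (log2 of normalized intensity) for the 10 tested probes of 7 genes. Diamonds are the means with 95% intervals from limma, circles are slide 1 and squares are slide 2. On slide 2, *Fabp1*, *Fabp2* (first probe), *Dgat1*, *Apoa1* and *Apoa4* lie between 1.35 and 1.54, whereas on slide 1 they run from 0.59 to 5.15.

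The members were also placed among all tested probes on each slide. Between 0.391% and 0.903% of all tested probes had a higher difference on slide 2 than *Apoa1*, *Apoa4*, *Fabp1*, *Dgat1* (each of its probes) and the first *Fabp2* probe. For the other tested probes the share on slide 2 was 2.52% (second *Fabp2* probe), 17.0% and 99.9% (*Apob*) and 81.3% (*Scarb1*). On slide 1 the share was 21.3% for *Apoa4* and 2.50% for *Apoa1*, but at most 0.613% for *Fabp1*, *Dgat1* and the first *Fabp2* probe. Without IEL replicate 2, limma called 2382 probes higher (8.53%) and 3059 lower (11%), with IEL replicate 1 assumed to vary like the SPL arrays. Among the 10 member probes, 4 were called, all higher. They were *Dgat1* (4.45 and 4.52), the brightest *Apob* probe (2.39) and the second *Fabp2* probe (3.84). The called *Apob* and *Fabp2* probes were not well above background in SPL replicate 2, so their values are fitted values that rest on it. Both passed the filter through the IEL arrays alone, so these calls are not independent of the filter. *Fabp1* (3.52, adjusted p = 0.0829), *Apoa1* (2.03, adjusted p = 0.0862), *Apoa4* (0.85, adjusted p = 0.132) and *Scarb1* (-1.02, adjusted p = 0.0747) were not called, nor were the first *Fabp2* probe (3.81, adjusted p = 0.0706) and the second *Apob* probe (-0.40, adjusted p = 0.296). Over all alternatives the adjusted p ran from 0.0135 to 1.00 for *Dgat1* and from 0.0219 to 1.00 for *Apob*.

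Other genes of fat, sterol and bile acid handling were taken as a list of 60, all on the array, of which 46 were tested and 0 passed the test. In this list 28 genes were higher and 18 lower, 20 lay above and 6 below without overlap, and the median difference was 0.29. Of all tested probes, 24.4% lay above and 24.6% below without overlap. The highest was *Soat2*, which esterifies cholesterol in enterocytes, at 661 and 257 units in IEL replicates 1 and 2, and 91.7 and 14.2 units in SPL replicates 1 and 2 (difference 4.06 ± 1.22, adjusted p = 0.634). *Slc51a*, a subunit of the bile acid exporter of the ileum, read 61.4 and 16.8 units in IELs and was not well above background in SPLs (3.78 and 5.26 units). On group means it was at least 6.98-fold higher in IELs, set against the lowest signal called well above background on the SPL arrays. It passed the filter through the IEL arrays alone and did not pass the test (adjusted p = 0.634). *Prap1* (2.33) and *Mogat2*, the monoacylglycerol acyltransferase of the gut (2.31, not well above background in SPL replicate 2), were also among the 6 highest. The partner of *Dgat1*, *Dgat2*, differed by 0.16 ± 0.35.

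The 6 lowest were *Abca1*, which exports cholesterol to apolipoprotein A-I (-3.05), *Acsl3* (-1.64), *Fabp4* (-1.59), *Apoe* (-1.53), *Cd36* (-1.50) and *Nr1h3* (-0.95), all with an adjusted p of 0.634 to 0.660. In each of them IEL replicate 1 was the lowest array, as for *Scarb1*. *Abca1*, for example, read 6.01 units in IEL replicate 1 and was not well above background there, and read 297, 411 and 636 units in the other arrays. *Fabp4* (1.90 units) and *Cd36* (4.06 units) were likewise not well above background in IEL replicate 1, so the differences of these 3 genes are fitted values and not measured on every array. On slide 2 the 6 differences ran from -0.51 to -0.26. Macrophages are known to use several of these genes. Of 9 macrophage markers measured, 6 were well above background in IEL replicate 1 and 9 on each other array. Their median difference was -2.10, with -3.72 on slide 1, and their summed level was 38.8 to 47.8 times the 75th percentile in IELs and 42.4 to 46.5 times in SPLs, most of it from *Lyz2*. Without *Lyz2* the other 8 summed to 0.477 and 10.8 in IEL replicates 1 and 2, and 14.1 and 5.47 in SPL replicates 1 and 2. Red cell and B cell markers were also lowest in IEL replicate 1. The 5 red cell genes summed to 1.15 and 75.01 in IELs, and 99.1 and 116 in SPLs, with a median difference of -3.18 (-6.01 on slide 1). The 6 B cell genes summed to 3.58 and 19.6 in IELs, and 25.1 and 19.2 in SPLs, with a median of -1.13 over the 5 tested. *Ms4a1*, which encodes CD20, read 4.40 units in IEL replicate 1, not well above background, and 2101 to 3197 units on the other arrays. The part of these lists in the values of *Scarb1* and the 6 genes was not tested. A list of fat cell markers had 1 of 4 genes tested (0.50).

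**Figure D3:**
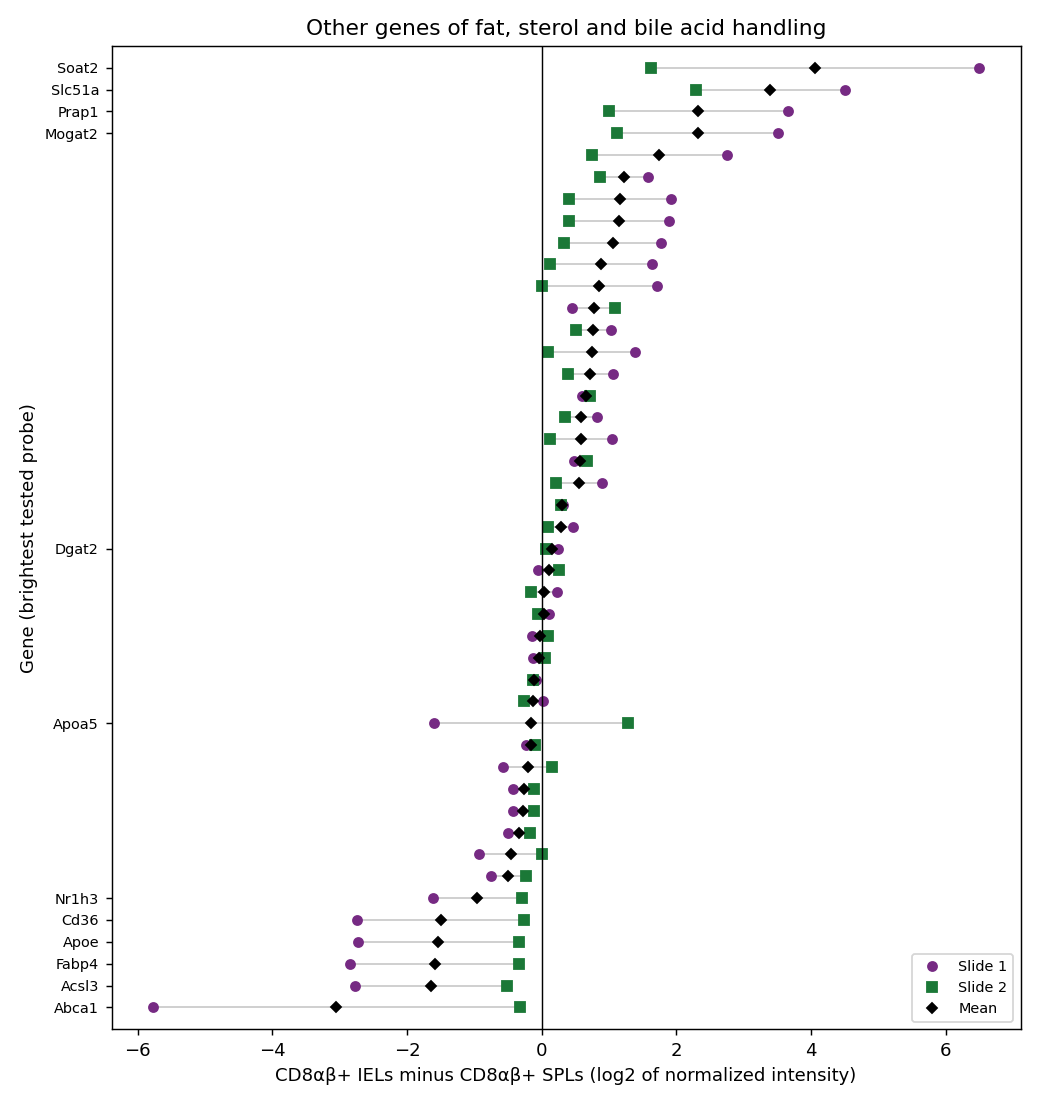
Difference between CD8αβ+ IELs and CD8αβ+ SPLs (log2 of normalized intensity) for tested genes of fat, sterol and bile acid handling, with circles for slide 1, squares for slide 2 and diamonds for the mean, and with names for the genes described in the text. *Soat2* (4.06) is at the top and *Abca1* (-3.05) at the bottom, and slide 2 is nearer 0 at both ends.

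Markers of the epithelium were set beside the members. Of 12 pan-epithelial genes, 12 and 10 were well above background in IEL replicates 1 and 2, and 10 and 8 in SPL replicates 1 and 2, so they were measured in spleen samples too. All 10 tested were higher in IELs, with a median of 3.11 (4.90 on slide 1 and 1.20 on slide 2). Summed over the list, the level was 32.5 and 7.17 times the array's 75th percentile in IELs, and 4.12 and 2.38 times in SPLs. Other enterocyte genes were mixed, with 14 of 20 tested, 11 higher, 3 lower and a median of 1.01. Within that list the keratin gene *Krt20* was at 3.93, and *Alpi*, *Sis* and *Lct* were at 0.58, 1.23 and -0.14. The amino acid transporter *Slc6a19* was lowest (-3.40). *Krt20* was not well above background in SPL replicate 2, nor *Slc6a19* in IEL replicate 1, so their differences are fitted values. On slide 2, where both arrays were well above background, *Krt20* was at 1.77 and *Slc6a19* at -0.56. Of the genes not tested, *Slc5a1*, *Enpep*, *Treh* and *Slc15a1* had no array well above background and a highest reading of 4.63 units. In bulk samples, fewer cells of a type and less RNA per cell cannot be told apart. Whether RNA of epithelial cells is part of the members' values was not tested.

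**Figure D4:**
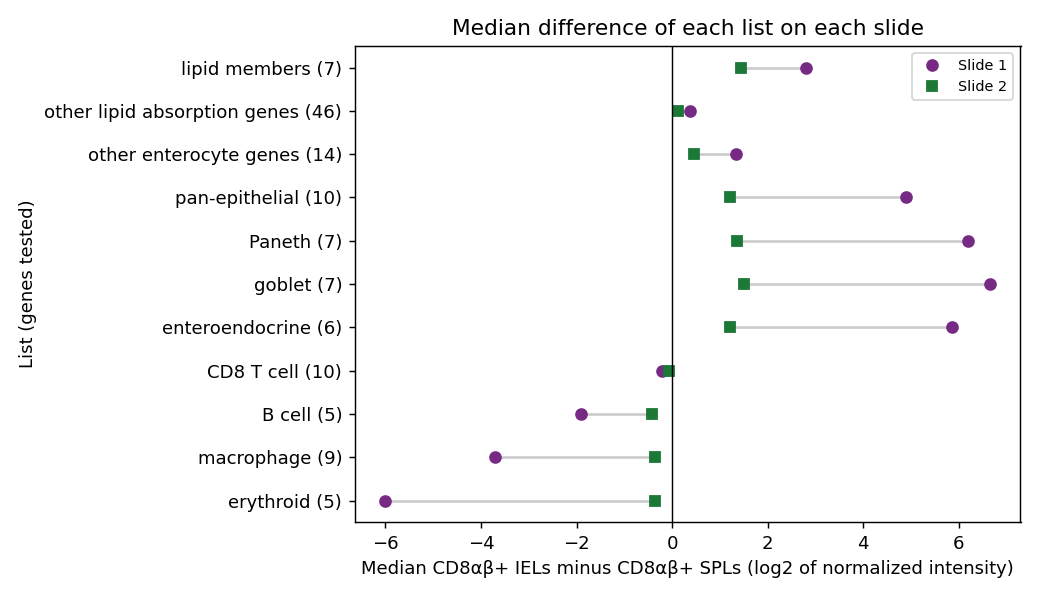
Median difference between CD8αβ+ IELs and CD8αβ+ SPLs (log2 of normalized intensity) of each gene list on slide 1 (circles) and slide 2 (squares), for lists with 5 or more tested genes, whose number is in brackets. The lipid members are at 2.79 and 1.45, and the pan-epithelial list is at 4.90 and 1.20.

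By their medians, lists of secretory epithelial cells had a wider gap between slides than the members, as did the pan-epithelial list. The members' median is that of *Apob* on slide 1 and of *Fabp1* on slide 2. *Fabp1*, *Fabp2* and *Dgat1* alone were at 4.80, 5.11 and 5.10 on slide 1, and 1.45, 1.47 and 1.39 on slide 2. On slide 1 *Apoa1*, *Apoa4*, *Apob* and *Scarb1* were at 2.75, 0.59, 2.79 and -0.81. The median was 6.66 on slide 1 and 1.49 on slide 2 for 7 goblet cell genes, and 6.18 and 1.36 for 7 Paneth cell genes. For 6 enteroendocrine genes it was 5.86 and 1.20. Of these genes, 6 goblet, 4 Paneth and 2 enteroendocrine were well above background in SPL replicate 2. The enteroendocrine median of slide 1 rests on *Gcg* and *Chga*, which were not, so it is a fitted value. In the goblet, Paneth and enteroendocrine lists the median excess of IEL replicate 1 over IEL replicate 2 was 2.80, 4.22 and 2.30 log2. It was 2.33 for the pan-epithelial genes, 0.79 for the 7 members and 0.63 for the other enterocyte genes. Single members ran from -1.02 (*Scarb1*) to 2.40 (*Dgat1*). Of 9 hepatocyte markers, 2 were tested, *Tat* (0.22, read at 86.0 to 148 units) and *Hpx* (0.16, read at 15.8 to 31.8 units), both well above background on the 4 arrays. *Alb*, the albumin gene, read between 1.57 and 4.32 units, near background throughout. The part of these genes in the values of *Fabp1*, *Apoa1*, *Apoa4* and *Apob*, which the liver also makes, was not tested. The CD8 T cell list had a median of -0.13.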

How the data were processed

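RNA of CD8αβ+ IELs and CD8αβ+ SPLs (2 samples per group) was labelled with cyanine 3 and measured on 1-color Agilent arrays. The authors deposited scanner files in which each spot has a background-subtracted intensity, with no normalization between arrays, written by Feature Extraction (10.7.3.1 in the file headers, 10.7.1.1 in the labels). A table of log2 values deposited by the authors was equalized by quantiles as judged from equal extremes (0.53 and 18.84). The paper's methods name another maker's chips and an unpaired t-test for 2 groups.

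Here, log2 intensity was scaled by each array's 75th percentile over the 43379 non-control spots. Outlier-marked spots (98 to 179 per array) were dropped before the repeat spots of a probe were averaged. No spot was saturated (0). Probes that stood well above background on both arrays of 1 group or of each were tested with limma 3.58.1 in R 4.3.3, two-sided, without a block and with Benjamini-Hochberg adjustment at 0.05. The brightest tested probe stands for a gene. Same-numbered arrays did not deviate together (r = -0.025 across probes). Named genes are the 10 members on all probes, the 6 highest and 6 lowest of the pathway list, marker genes as needed, and the 10 genes nearest the members' profile. *Dgat2*, *Apoa5* and single enterocyte genes were added after their values were seen. A few genes of the lists and 1 motif are not reported here. The members and lists were chosen with earlier results of these data known. Probe positions are those of the array annotation (mm9), and promoters are from RefSeq (GRCm38.p6). The model was tested on simulated data. Alternatives covered scaling, background correction, the authors' values, filters, blocks, an intensity trend, the methods' test, each sample left out and the mean of a gene's probes.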

Additional observations from a re-analysis of the deposited data

How the results depend on the processing

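With 2 arrays per group and signals near background for the apolipoproteins, signal over background limits what can be seen. Normexp background correction with an offset of 50 moved the median of all tested probes to -0.38 and that of the member genes to -0.23, with 0.22 on slide 1, -1.11 on slide 2 and 2 members above without overlap. *Fabp1* was then at -0.19, *Apoa4* at -0.87, *Apoa1* at -0.82 and *Apob* at -0.94, and the median of the other lipid absorption genes was -0.51. Normexp was also fitted after removal of 25 spots that lay over 20 units under their own local background, chosen after seeing the data. It gave a median of 0.75 for the members, 1.12 on slide 1 and 0.44 on slide 2, beside 0.15 for all probes. In this second fit 6 members were above without overlap. Relative to all probes, the members' median was above in each of these fits. In the first fit, however, that median was the value of *Scarb1*, and *Apoa1*, *Apoa4* and *Apob* lay below the median of all probes. The offset of these fits compresses differences of dim probes toward 0 by construction. Why *Fabp1*, *Apoa1*, *Apoa4* and *Apob* fell below 0 in the first fit was not tested. Without a filter on dim probes, the median of all probes was 0.15 and that of the 10 genes 1.88. With only probes well above background on all 4 arrays, 5 members were left, with a median of 3.13 and 4.80 on slide 1. Leaving out each sample in turn gave 0 to 5441 called probes, the last without IEL replicate 2, and a members' median of 1.42 to 2.85. *Scarb1* was at 0.0047 without IEL replicate 1 and at -1.02 without IEL replicate 2. With a block for the replicate number, or for the slide, 0 probes were called and the members' median was 2.13, so neither block changed a call. The mean of a gene's tested probes left 5 members above without overlap. *Apob* dropped out, with a mean difference of 0.15 over its tested probes. Over all alternatives for single members, 110 values kept their direction and their side of the threshold, 5 reversed and 2 were newly past it, namely *Dgat1* and *Apob* without IEL replicate 2.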

Other observations

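Among the 10 genes whose 4 array levels ran closest to the median profile of the tested members were *Bean1*, *Kit*, *Prdm1*, *Kcnk1*, *Plekhf1*, *Slamf7*, *Dkkl1*, *Cd38* and *Il12rb1*. The profile, centred on its own mean, was 1.56 and 0.69 in IEL replicates 1 and 2, and -0.41 and -1.84 in SPL replicates 1 and 2. The root mean square distance from it was 0.013 log2 for *Bean1*, 0.057 for *Kit*, a growth factor receptor, 0.093 for *Prdm1*, a transcriptional repressor, and 0.14 for *Il12rb1*, the tenth. The members themselves lay farther from their median profile, between 0.38 for *Apoa1* and 1.57 for *Scarb1*. These are descriptions over 4 arrays, ordered by the distance itself.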
